A study of Oryza sativa with 16 samples.

Results

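The genes described here encode type 2C protein phosphatases (PP2Cs) of rice. They were chosen by name, as the genes of the array's probe annotation whose symbol or synonym is PP2C followed by a number, leaving out OsPP2C06, OsPP2C08, OsPP2C30 and PP2C68, which belong to the core of abscisic acid (ABA) signaling. This gave 51 of the 17905 genes with a probe set of their own, and 1 probe set stood for each gene, the one with the highest mean. All 51 passed the filter on low signals that 34316 of the probe sets passed, and they lie on all 12 chromosomes, with 12 on chromosome 2 and 8 on chromosome 3. Genes with a name of this kind were 56 in the RefSeq gene table, and the other 5 (OsPP2C41, OsPP2C49, OsPP2C50, OsPP2C65 and OsPP2C77) were not analysed here. The names do not set the members wholly apart from ABA: OsPP2C09, OsPP2C51 and OsPP2C53, also named OsABIL2, are known in rice for restraining ABA responses and stayed under the rule.

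PP2Cs are metal-dependent serine/threonine phosphatases that act as single subunits and undo the work of protein kinases. One clade of them, to which the ABA core belongs, holds SnRK2 kinases inactive until the bound ABA receptor captures the phosphatase, and ABA signaling of this kind drives the maturation and dormancy of seeds. Members of other clades act on MAP kinases and receptor kinases, and for many of the rice genes no substrate is known.

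The arrays measured RNA of whole seeds from 2 japonica rice cultivars kept at 28°C in the day and 22°C at night. Hanfeng (HF) is the cold-resistant cultivar of the study, and Zhonghua 11 (ZH) is the cultivar it was set against. HF seeds were taken after 2 days at 14°C from 4 days after fertilization (HF 4D-2DC) and at 4 days after fertilization (DAF) without cold (HF 4D). ZH seeds were taken after 2 days at 14°C from 4 DAF (ZH 4D-2DC) or from 10 DAF (ZH 10D-2DC), and without cold at 4, 6, 10 and 12 DAF, named ZH 4D to ZH 12D in the same way. Each of the 8 conditions had 2 arrays, 16 in all, so the spread of a condition rests on 2 values. The labels call these biological replicates and do not say whether they came from separate plants, so that p-values measure only the spread between these arrays.

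Values are log2(signal + 16) throughout, a scale on which 1 unit is a 2-fold change for a bright probe set and less than that near the floor. Probe sets differ in how well they bind their target, so levels were compared within a probe set and not between genes. A gene is called past the threshold where limma gave an unadjusted p under 0.05 and the difference was over 2-fold. The study set this threshold for genes regulated by low temperature. For genes that changed over seed development it used another test with a lower p cutoff, so the age calls here are not at its cutoff. An adjusted p is adjusted over all 34316 probe sets. The arrays of replicate 1 differed from those of replicate 2 as a set. Their median signal was 85.9 to 172 on replicate 1 and 49.8 to 60.1 on replicate 2, and the paired arrays of a condition correlated at r = 0.72 to 0.84 across probe sets. The arrays of replicate 1 also differed among themselves: an array control (BioB) was at a signal of 740 to 7666 on replicate 1 and 368 to 816 on replicate 2.

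The spread of these phosphatase genes over the 8 conditions was close to that of other probe sets, with fewer gaps over 2. The gap between a gene's highest and lowest condition mean was 1.48 in the median member, against 1.66 in the median of all probe sets tested. It was under 1 for 13 members, among them OsPP2C70, OsPP2C47, OsPP2C28 and OsPP2C58, and 1 to 1.5 for 13 more. Another 15 members lay between 1.5 and 2. Gaps over 2 were found for 10 members, 19.6% of them, against 32.1% of all probe sets tested. The probe sets of the members were brighter, with a median mean of 9.64 against 7.93 over all probe sets tested. Gaps were not compared at like signal, so these shares and those below come from sets of unlike brightness.

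The 5 members with gaps over 3 were OsPP2C27 (5.64), OsPP2C59 (4.81), OsPP2C07 (3.82), OsPP2C12 (3.14) and OsPP2C44 (3.14). They made up 9.8% of the members, against 7.75% of all probe sets tested, a comparison that rests on 5 genes. The lowest condition was ZH 4D for OsPP2C59, OsPP2C12 and OsPP2C44 and HF 4D for OsPP2C27, while OsPP2C07 had its highest mean in ZH 4D. The gaps of these genes thus lay between the youngest seeds without cold and the older ones.

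**Figure D1:**
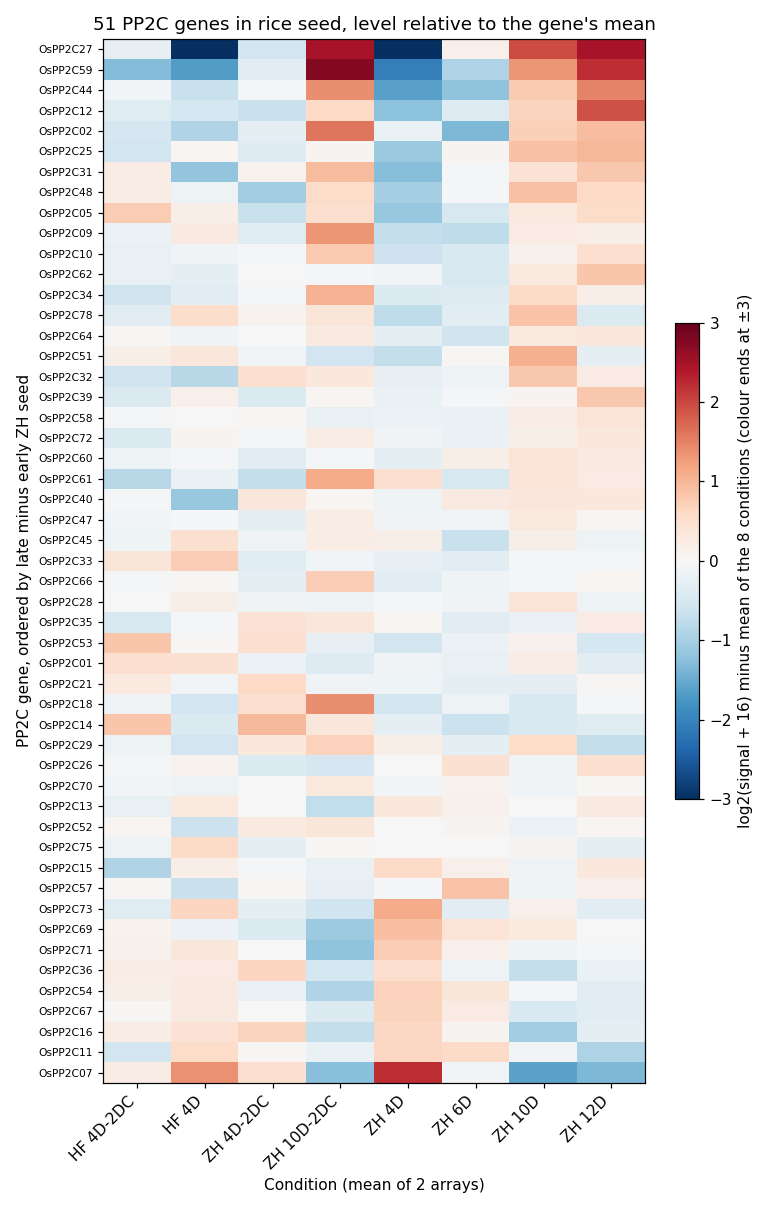
Condition means of the 51 PP2C genes (rows) in the 8 conditions (columns), each shown as its difference from the gene's own mean over the 16 arrays, in log2(signal + 16) with the colour scale ending at 3 either way. The widest gaps are those of OsPP2C27 (5.64) and OsPP2C59 (4.81), and 26 of the 51 genes have a gap under 1.5.

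OsPP2C52 and OsPP2C40 had high signal in every condition. OsPP2C52 was at 12.31 and 11.97 in HF 4D-2DC, 11.14 and 11.76 in HF 4D, 12.54 and 12.19 in ZH 4D-2DC and 12.70 and 12.20 in ZH 10D-2DC. In ZH seeds without cold it was at 12.43 and 11.72 at 4 DAF, 12.33 and 12.02 at 6 DAF, 12.29 and 11.52 at 10 DAF and 12.36 and 11.92 at 12 DAF. All of its condition means lay within 1.0 of each other, and HF 4D was the lowest.

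OsPP2C40, also named OsPP65, was at 12.21 and 11.25 in HF 4D-2DC, 10.26 and 11.03 in HF 4D, 12.25 and 11.98 in ZH 4D-2DC and 12.00 and 11.68 in ZH 10D-2DC. In ZH seeds without cold it lay between 11.46 and 12.79. The arrays of HF 4D were below all others for this gene, yet neither HF contrast passed the threshold for it (HF 4D minus ZH 4D, -0.99, SE 0.69, limma adjusted p = 1.0).

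Seed age was compared in ZH seeds without cold, with the 4 arrays of 10 and 12 DAF set against the 4 arrays of 4 and 6 DAF. Late seeds had more RNA of OsPP2C27, OsPP2C59, OsPP2C44, OsPP2C12, OsPP2C02 and OsPP2C25 and less of OsPP2C07. These 6 higher and 1 lower were 7 of the 51 members past the threshold, beside 11.2% of all probe sets tested (6.08% higher and 5.09% lower). None had an adjusted p under 0.05, which 1.15% of all probe sets tested had, and the lowest adjusted p among the members was 0.0560. The median difference was 0.23 over the members and -0.01 over all probe sets tested, and 34 members were positive and 17 negative. Positive differences thus made up 66.7% of the members, beside 49.5% of all probe sets tested.

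The 2 arrays of a condition carried replicate numbers that marked a shared deviation, so the fit with the replicate number as a block bears on these counts. Such a block removes what same-numbered arrays share and not how they differ among themselves. The fit with the block put 11 members past the threshold (9 higher, 2 lower), beside 16.2% of all probe sets tested (8.58% higher and 7.59% lower). The added members were OsPP2C05, OsPP2C31 and OsPP2C48, higher, and OsPP2C11, lower. A dimmer probe set of OsPP2C48 had the opposite sign (-0.72, SE 0.74 without the block). In the fit with the block 4 members had an adjusted p under 0.05, beside 4.06% of all probe sets tested: OsPP2C27 (0.0142), OsPP2C59 (0.0151), OsPP2C44 (0.0324) and OsPP2C07 (0.0429).

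OsPP2C27 had the largest difference between late and early seeds among the members. In rice this phosphatase is known to dephosphorylate a MAP kinase and a bHLH factor of the chilling response and so to restrain it. On replicate 1 and 2 it was at 11.45 and 7.61 in ZH seeds at 4 DAF, 13.61 and 11.90 at 6 DAF, 15.25 and 13.90 at 10 DAF and 15.85 and 14.32 at 12 DAF. All 4 late arrays lay above all 4 early ones, and on either replicate number the level was higher at each later age.

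The late mean of OsPP2C27 was 14.83 and the early mean 11.14, a difference of 3.69 (SE 0.84, limma adjusted p = 0.0588, and 0.0142 with the replicate block). Part of it lay within the early pair, where ZH 6D exceeded ZH 4D by 3.23 (SE 1.18, limma adjusted p = 1.0). From 10 to 12 DAF the difference was 0.51 (SE 1.18). The SD over the 2 arrays of ZH 4D was 2.71 for this gene, the highest of its 8 conditions.

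Marker genes of seed tissues varied on these arrays too. The summed signal of 10 endosperm markers on replicate 1 was 412637 at 4 DAF, 1054750 at 6 DAF, 790366 at 10 DAF and 1143696 at 12 DAF. On replicate 2 it was 28067, 243549, 327907 and 346839 at the same ages, so that ZH 4D was lowest on both, and only on replicate 2 was the sum higher at each later age. In HF 4D it was 50915 and 212167, where OsPP2C27 was at 8.48 and 10.41. All 10 endosperm markers had a positive late minus early difference, with a median of 1.77, and 2 passed the threshold (GLUA-1 and RA17), or 4 with the replicate block. The summed signal of 4 embryo and aleurone markers was 1296 and 811 at 4 DAF, 12101 and 10015 at 6 DAF, 86733 and 95693 at 10 DAF and 169301 and 91692 at 12 DAF, and all 4 were higher in late seeds, 3 of them with an adjusted p under 0.05. The sum of 3 green pericarp or leaf markers was 31901 and 22714 at 4 DAF, 15147 and 31837 at 6 DAF, 3094 and 42820 at 10 DAF and 3229 and 30267 at 12 DAF, so that late seeds were below early ones on replicate 1 and not on replicate 2. All 3 of these genes had a negative age difference, with a median of -0.51, and none passed the threshold. The part of these tissues in the result was not tested. In whole seeds, more cells of a type and more RNA per cell cannot be told apart.

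Over the 8 condition means, the 3 of 2255 named genes whose pattern was most like that of OsPP2C27 were MFT1 (r = 0.987), OsSUS4 (r = 0.986) and OsVP1 (r = 0.985), the last of which is among the embryo markers. These points come from the same arrays, so the values describe likeness only.

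OsPP2C59 was the other member with a difference over 3. In ZH seeds without cold it was at 5.18 and 6.69 at 4 DAF, 7.23 and 6.91 at 6 DAF, 9.38 and 9.27 at 10 DAF and 10.46 and 9.94 at 12 DAF. The late arrays lay more than 2 above the highest early array. The late mean of 9.76 exceeded the early mean of 6.50 by 3.26 (SE 0.73, limma adjusted p = 0.0560, and 0.0151 with the block). Its highest levels were in the late seeds after cold, at 11.11 and 10.36 in ZH 10D-2DC, and its lowest single value was in HF 4D-2DC, at 4.90 and 8.48.

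The gene most like OsPP2C59 over the 8 condition means was OsPM19L1 (r = 0.996), followed by GUT1 (r = 0.992) and CKX5 (r = 0.990). The range of OsPM19L1 was wider, with means of 6.70 at 4 DAF and 14.91 in ZH 10D-2DC, against 5.93 and 10.74 for OsPP2C59.

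OsPP2C44 was at 7.37 and 10.50 at 4 DAF, 8.78 and 9.93 at 6 DAF, 11.82 and 10.91 at 10 DAF and 12.33 and 11.81 at 12 DAF. The late arrays were above every early one. The difference of 2.57 (SE 0.65, limma adjusted p = 0.0862, and 0.0324 with the block) was 4.00 on replicate 1 and 1.14 on replicate 2. ZH 4D replicate 1 was the lowest of all 16 arrays for this gene.

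OsPP2C07 was the 1 member past the threshold that fell. It was at 10.92 and 10.39 at 4 DAF, 8.12 and 8.58 at 6 DAF, 5.69 and 7.98 at 10 DAF and 6.55 and 7.63 at 12 DAF. The late arrays were below all early ones, and the largest step came between 4 and 6 DAF, where ZH 6D was lower by -2.30 on the log2 scale (SE 0.92, limma adjusted p = 1.0). Over both late ages it fell by 2.54 (SE 0.65, limma adjusted p = 0.0938, and 0.0429 with the block), by 3.39 on replicate 1 and 1.68 on replicate 2.

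A second probe set of OsPP2C07 gave -1.15 for the same contrast (SE 0.59, limma adjusted p = 0.497), the same sign at a smaller size, and did not pass the threshold. The named genes most like OsPP2C07 over the 8 condition means were PCF8 (r = 0.983), CYCB2 (r = 0.978) and PRMT1 (r = 0.975). CYCB2, a B-type cyclin of dividing cells, had means of 11.62 at 4 DAF and 6.97 at 12 DAF.

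OsPP2C25 was at 6.67 and 7.65 at 4 DAF, 8.81 and 7.91 at 6 DAF, 9.17 and 9.13 at 10 DAF and 9.03 and 9.51 at 12 DAF. Its early and late arrays did not overlap either, with a difference of 1.45 (SE 0.45, limma adjusted p = 0.180). Together with OsPP2C27, OsPP2C59 and OsPP2C44 it made 4 members whose late arrays all lay higher, beside 4.88% of all probe sets tested. OsPP2C07 and OsPP2C67 were the 2 whose late arrays all lay lower, beside 5.03%, and OsPP2C67 did not pass the threshold (-0.85, SE 0.48, limma adjusted p = 0.547).

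OsPP2C12 and OsPP2C02 passed the threshold on overlapping arrays. OsPP2C12 was at 5.83 and 9.42 at 4 DAF, 7.48 and 9.49 at 6 DAF, 8.46 and 10.59 at 10 DAF and 11.05 and 10.48 at 12 DAF. Its difference of 2.09 (SE 0.91, limma adjusted p = 0.393) was 3.10 on replicate 1 and 1.08 on replicate 2. The replicate 1 arrays were lower than those of replicate 2 at 4, 6 and 10 DAF. Its nearest named genes over the 8 condition means were BGLU14 (r = 0.985), OsPK1 (r = 0.982) and ABCC13 (r = 0.975).

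OsPP2C02 was at 8.94 and 10.50 at 4 DAF, 7.79 and 9.37 at 6 DAF, 9.98 and 11.30 at 10 DAF and 10.81 and 10.88 at 12 DAF, a late minus early difference of 1.59 (SE 0.62, limma adjusted p = 0.314). Its lowest condition was ZH 6D and its highest ZH 10D-2DC, at 11.09 and 11.99.

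The age count depended on single arrays. OsPP2C27, OsPP2C59, OsPP2C44, OsPP2C07 and OsPP2C25 stayed past the threshold whichever of the 16 arrays was left out. OsPP2C12 and OsPP2C02 did not: both were lost without replicate 1 of ZH 4D (differences of 1.19 and 1.20) or of ZH 6D (1.59 and 1.20), and without replicate 2 of ZH 10D (1.56 and 1.26) or of ZH 12D (2.23 and 1.58), and OsPP2C12 also without replicate 1 of ZH 12D (1.95). Without replicate 2 of ZH 4D, OsPP2C05, OsPP2C09, OsPP2C10, OsPP2C32 and OsPP2C34 were added as higher and OsPP2C67 as lower. How many of all probe sets passed in these fits is not given here, so the changes describe single members only. Single further members were added without replicate 1 of ZH 4D (OsPP2C31) and without replicate 2 of ZH 10D or of ZH 12D (OsPP2C11), and OsPP2C31 and OsPP2C51 without replicate 1 of ZH 12D.

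**Figure D2:**
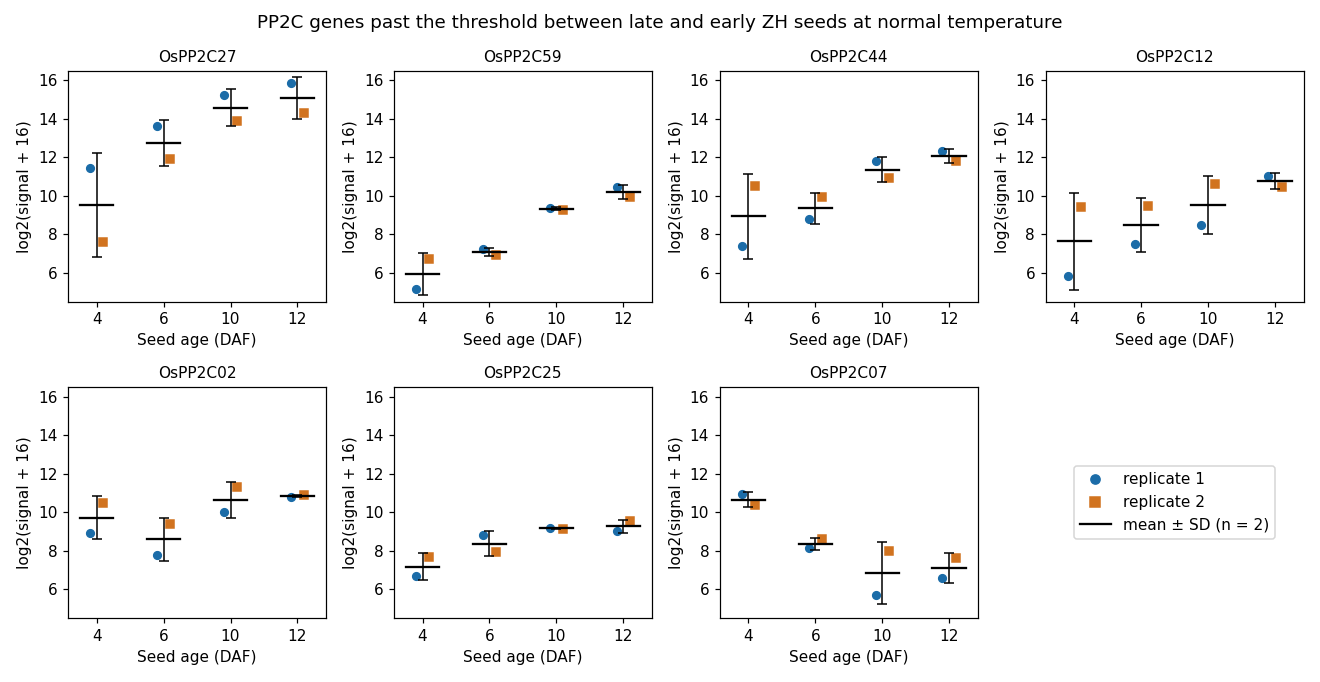
The 7 PP2C genes past the threshold between late and early ZH seeds without cold, with seed age in DAF on the x axis and log2(signal + 16) on the y axis. Points are single arrays by replicate number, and the bar is the mean with its SD over 2 arrays. OsPP2C27, OsPP2C59, OsPP2C44 and OsPP2C25 have all late arrays above all early ones, OsPP2C07 has them below, and OsPP2C12 and OsPP2C02 overlap.

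OsPP2C66 showed that the choice of probe set matters. It has 3 probe sets that passed the filter, and the brightest, which stood for the gene, gave a late minus early difference of 0.23 (SE 0.62). The probe set second in mean signal gave 3.86 (SE 0.42, limma adjusted p = 0.00171). It was at 6.25 and 6.25 at 4 DAF, 7.03 and 7.61 at 6 DAF, 10.32 and 9.89 at 10 DAF and 10.90 and 11.48 at 12 DAF, so that the late arrays lay more than 2 above the early ones.

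The same probe set of OsPP2C66 was at 6.19 and 6.70 in HF 4D-2DC, 5.96 and 6.47 in HF 4D, 7.09 and 7.76 in ZH 4D-2DC and 10.31 and 11.15 in ZH 10D-2DC. In ZH, the cold seeds thus lay near seeds of their age without cold, and HF had no seeds of 6 DAF for such a comparison. The remaining probe set of the gene gave an age difference of 0.92 (SE 0.87). Which transcript each of the 3 reads was not tested, and they were singled out after their values were seen.

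**Figure D3:**
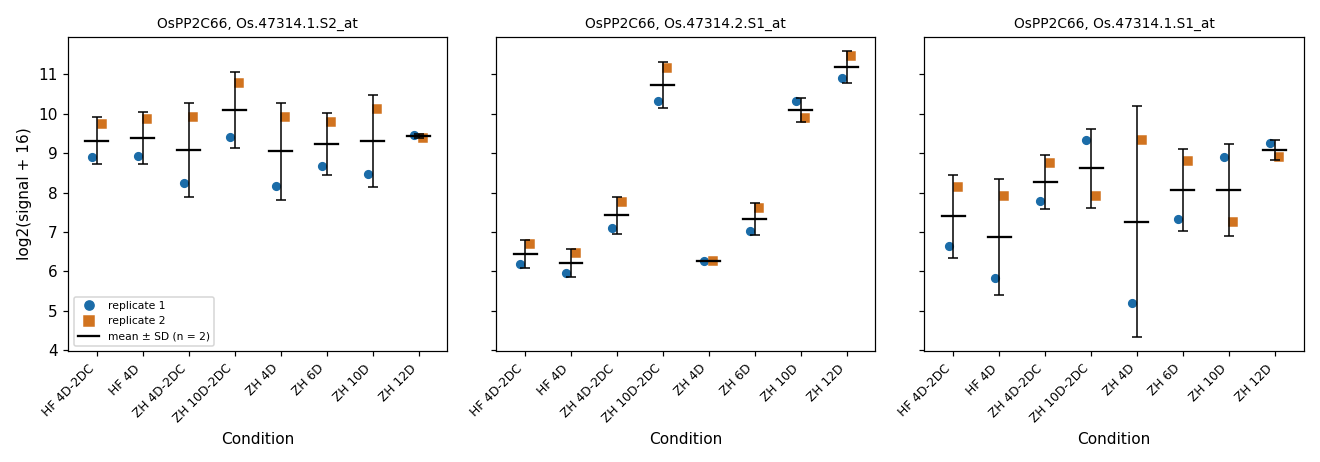
The 3 probe sets of OsPP2C66 over the 8 conditions, as log2(signal + 16) of each array by replicate number with the mean and SD over 2 arrays. Only the middle panel has all arrays of ZH 10D, ZH 12D and ZH 10D-2DC above those of the younger seeds, with an age difference of 3.86 against 0.23 (left) and 0.92 (right).

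Of the 12 members with several probe sets, 9 had more than 1 that passed the filter. Besides OsPP2C66, a probe set not used for the gene passed the age threshold for OsPP2C47 (1.71, limma adjusted p = 0.284), OsPP2C73 (1.27, adjusted p = 0.336) and OsPP2C71 (-1.67, adjusted p = 0.351), where the probe sets used gave 0.27, -0.47 and -0.54. The directions of the probe sets thus opposed each other for OsPP2C73. They also did for OsPP2C48 (1.27 on the probe set used and -0.72 on the other), OsPP2C39 (0.58 and -0.11) and OsPP2C14 (0.04 and -0.05). The probe set of OsPP2C66 stayed past the threshold whichever array was left out, and those of OsPP2C47, OsPP2C73 and OsPP2C71 did not. That of OsPP2C47 was at 4.95 on replicate 1 of ZH 4D, against 8.18 to 8.58 on the other early arrays. Its difference was 0.81 without that array, and it also no longer passed without replicate 1 of ZH 6D (1.61) or of ZH 10D (1.54). That of OsPP2C73 was lost without replicate 2 of ZH 4D (1.02) or of ZH 6D (0.97) and without replicate 1 of ZH 10D (1.09) or of ZH 12D (1.04). That of OsPP2C71 was lost without replicate 1 of ZH 4D (-1.18), of ZH 6D (-1.30) or of ZH 10D (-1.52) and without replicate 2 of ZH 12D (-1.58). Counting a member where any of its tested probe sets passed, 11 members were past the age threshold. Genes with several probe sets have more chances to pass in this count. No share of all genes counted in this way is given beside it, so it is not comparable with the 11.2% of all probe sets tested.

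Kinases of the families that PP2Cs are known to act on were set beside the members. For comparison, 11.2% of all probe sets tested passed the age threshold, and 16.2% with the replicate block. Of 10 SnRK2 kinase genes, 2 passed, both higher: OsSAPK9 (1.54, limma adjusted p = 0.166) and OsSAPK10 (1.05, adjusted p = 0.282). With the block 4 were higher, OsSAPK1 and OsSAPK3 added. Of 15 MAP kinase genes 3 were higher, and 5 with the block, and the median difference was 0.60. MPK10 was higher by 3.52 (limma adjusted p = 0.0134). The annotation gives the name MAPK6 to 2 loci, of which LOC4339633 was higher by 1.43 (adjusted p = 0.117 by limma) and LOC4340170 was at -0.25. It gives the name MAPK2 to 3 loci, of which LOC4328223 was higher by 2.02 (limma adjusted p = 0.271), while LOC4328297 was at 1.25, past the threshold with the block alone, and LOC4332475 at 0.49. Of 30 tested genes of calcium-regulated kinases and their sensors, 3 were higher and 1 lower, or 3 and 3 with the block, with CIPK21 at 3.20 (limma adjusted p = 0.0300).

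None of the 4 ABA core PP2C genes and none of 6 other serine/threonine phosphatase genes passed the age threshold, and with the replicate block 1 of the ABA core did, OsPP2C08 (1.09). The 1 ABA receptor gene on the list, OsPYL11, was higher by 1.10 (SE 0.45, limma adjusted p = 0.346). OsPP2C09, OsPP2C51 and OsPP2C53, the members known for ABA signaling, gave 0.96, 0.73 and 0.16 and did not pass.

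Low temperature from 4 DAF was assessed against seeds of the same age at harvest, as ZH 4D-2DC against ZH 6D. OsPP2C14 was the 1 member higher in the cold seeds, and none was lower, beside 1.21% of all probe sets tested past the threshold (0.644% higher and 0.562% lower). Its difference was 1.62. The median difference over the members was 0.06, against 0.04 over all probe sets tested, with 27 members positive and 24 negative. Positive differences made up 52.9% of the members, beside 52.4% of all probe sets tested. Among the members 7 had both cold arrays above both arrays of ZH 6D and 7 had both below, beside 12.4% and 11.2% of all probe sets tested.

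OsPP2C14 was at 12.26 and 12.03 in ZH 4D-2DC, against 11.00 and 10.06 in ZH 6D. Both cold arrays lay above both arrays without cold. The difference of 1.62 (SE 0.58, limma adjusted p = 1.0) was 1.26 on replicate 1 and 1.97 on replicate 2. It was no longer past the threshold without replicate 1 of ZH 4D-2DC (1.5) or without replicate 2 of ZH 6D (1.15), and the dimmer second probe set of the gene gave 0.84 (SE 1.12).

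The other cold seeds gave positive values of OsPP2C14 as well. In HF it was at 12.35 and 11.67 in HF 4D-2DC, against 10.75 and 10.72 in HF 4D, a difference of 1.28 (SE 0.58, limma adjusted p = 1.0) between seeds that also differ by 2 days in age. In ZH 10D-2DC it was at 11.13 and 11.88, against 11.06 and 10.57 in ZH 12D, a difference of 0.69 (SE 0.58). In ZH seeds without cold it stayed between 10.06 and 11.06 at all 4 ages, with a late minus early difference of 0.04.

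The 4 arrays of seeds taken to 14°C at 4 DAF, in either cultivar, were thus the 4 highest of this gene but for replicate 2 of ZH 10D-2DC, at 11.88 against 11.67 for replicate 2 of HF 4D-2DC. The SD over 2 arrays was 0.49 in HF 4D-2DC, 0.02 in HF 4D, 0.16 in ZH 4D-2DC and 0.66 in ZH 6D.

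The lowest difference in this comparison was that of OsPP2C48, at -0.98 (SE 1.10). It was at 5.83 and 9.41 in ZH 4D-2DC, against 8.11 and 9.08 in ZH 6D, so that the sign rested on replicate 1 of the cold seeds: without that array the difference was 0.81. Without replicate 2 of ZH 4D-2DC, OsPP2C48 and OsPP2C69 passed as lower beside OsPP2C14.

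OsPP2C27 did not pass in the comparison at matched age, at 12.23 and 11.89 in ZH 4D-2DC, against 13.61 and 11.90 in ZH 6D, a difference of -0.70 (SE 1.18). Against the younger seeds at which the treatment began, it passed the threshold in HF. It was at 12.18 and 12.56 in HF 4D-2DC, against 8.48 and 10.41 in HF 4D, by 2.93 (SE 1.18, limma adjusted p = 1.0). In ZH the difference from ZH 4D was 2.53 (SE 1.18), past the threshold only with the replicate block. Over the same 2 days without cold, ZH seeds gave 3.23, and the part of age in the HF value cannot be told apart from that of cold, since no HF seeds of 6 DAF were analysed here.

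Few other members differed between the cold seeds and the seeds at the start of the treatment. HF 4D-2DC minus HF 4D put 2 members past the threshold, OsPP2C27 and OsPP2C14, both higher, beside 2.29% of all probe sets tested. ZH 4D-2DC minus ZH 4D put 1 past it, OsPP2C73, lower (-1.41, SE 0.60, limma adjusted p = 1.0), beside 1.75%. OsPP2C73 was at 8.77 and 9.02 in ZH 4D-2DC, against 10.48 and 10.12 in ZH 4D, but ZH 6D without cold was at 8.81 and 8.86 and also below ZH 4D (-1.47, SE 0.60). Its dimmer probe sets did not all fall. One was at 7.30 and 6.33 in ZH 4D, 8.36 and 7.20 in ZH 6D and 6.90 and 6.91 in ZH 4D-2DC. Another fell, from 9.39 and 9.09 in ZH 4D to 7.89 and 8.29 in ZH 6D and 8.19 and 8.41 in ZH 4D-2DC. The dimmest was lower than ZH 4D on replicate 1 alone in both.

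With the replicate block, ZH 4D-2DC minus ZH 4D put 4 members past the threshold in place of 1, with OsPP2C27 and OsPP2C14 higher and OsPP2C73 and OsPP2C61 lower, beside 4.32% of all probe sets tested. ZH 6D minus ZH 4D put 3 members past it, OsPP2C27, OsPP2C07 and OsPP2C73, with or without the block, beside 2.23% of all probe sets without it and 4.83% with it. ZH 12D minus ZH 10D put none past it, beside 0.842%, and with the block 1, OsPP2C29, lower, beside 2.64%.

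Calls between seeds of different age rested on single arrays. OsPP2C14 in HF 4D-2DC minus HF 4D passed the threshold in 3 of the 16 fits that left out 1 array, was lost in the other 13 (0.93 without replicate 1 of HF 4D-2DC), and was also lost under quantile normalization (1.15), median centring (1.72) and without the filter (1.28). OsPP2C27 in the same contrast was lost without replicate 1 of HF 4D (1.96), replicate 1 of HF 4D-2DC (3.12) or replicate 2 of HF 4D-2DC (2.74). In ZH 6D minus ZH 4D it was lost without replicate 2 of ZH 4D (1.31) or replicate 1 of ZH 6D (2.38). OsPP2C07 and OsPP2C73 in ZH 6D minus ZH 4D were lost without replicate 1 of ZH 4D (-2.04 and -1.29) or either array of ZH 6D, and under quantile normalization (-2.24 and -1.36) and median centring (-2.26 and -1.42). OsPP2C73 in ZH 4D-2DC minus ZH 4D was lost without any 1 of the 4 arrays compared (-1.58 to -1.23), under both of these scalings (-1.38 and -1.35) and without the filter (-1.41).

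Low temperature from 10 DAF was assessed as ZH 10D-2DC against ZH 12D. OsPP2C29 was the 1 member past the threshold, higher in the cold seeds by 1.42, beside 2.51% of all probe sets tested (1.06% higher and 1.45% lower). The median difference was -0.03 over the members and -0.02 over all probe sets tested, with 23 members positive and 28 negative. Positive differences made up 45.1% of the members, beside 48.8% of all probe sets tested. Both cold arrays lay above both arrays of ZH 12D for 8 members and below for 8, beside 12.8% and 16.1% of all probe sets tested.

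OsPP2C29 was at 10.21 and 10.92 in ZH 10D-2DC, against 9.0 and 9.29 in ZH 12D. The arrays did not overlap, and the difference of 1.42 (SE 0.62, limma adjusted p = 1.0) was 1.21 on replicate 1 and 1.63 on replicate 2. ZH 10D, the seeds before the treatment, was at 10.30 and 10.53, so that ZH 12D was the low condition of the 3, by -1.27 against ZH 10D (SE 0.62).

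OsPP2C29 no longer passed the threshold without replicate 2 of ZH 10D-2DC (1.06), replicate 1 of ZH 12D (1.27) or replicate 2 of ZH 12D (1.56), and also, at an unchanged difference of 1.42, without either array of HF 4D-2DC or either array of ZH 6D. OsPP2C26 passed without replicate 1 of ZH 10D-2DC and OsPP2C71 without replicate 2. From 4 DAF the gene was at 9.38 and 10.97 in ZH 4D-2DC, against 9.30 and 9.82 in ZH 6D, a difference of 0.61 (SE 0.62).

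The highest difference at 10 DAF was that of OsPP2C18, at 8.39 and 7.4 in ZH 10D-2DC, against 5.67 and 7.18 in ZH 12D, by 1.47 (SE 0.81). Its probe set had the lowest mean signal among those used, and 5.49 to 7.73 was its span on the other arrays of ZH seeds. It passed without replicate 2 of ZH 12D, with 2.22. The lowest was that of OsPP2C12, at 9.18 and 9.75 in ZH 10D-2DC, against 11.05 and 10.48 in ZH 12D, by -1.30 (SE 1.29).

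**Figure D4:**
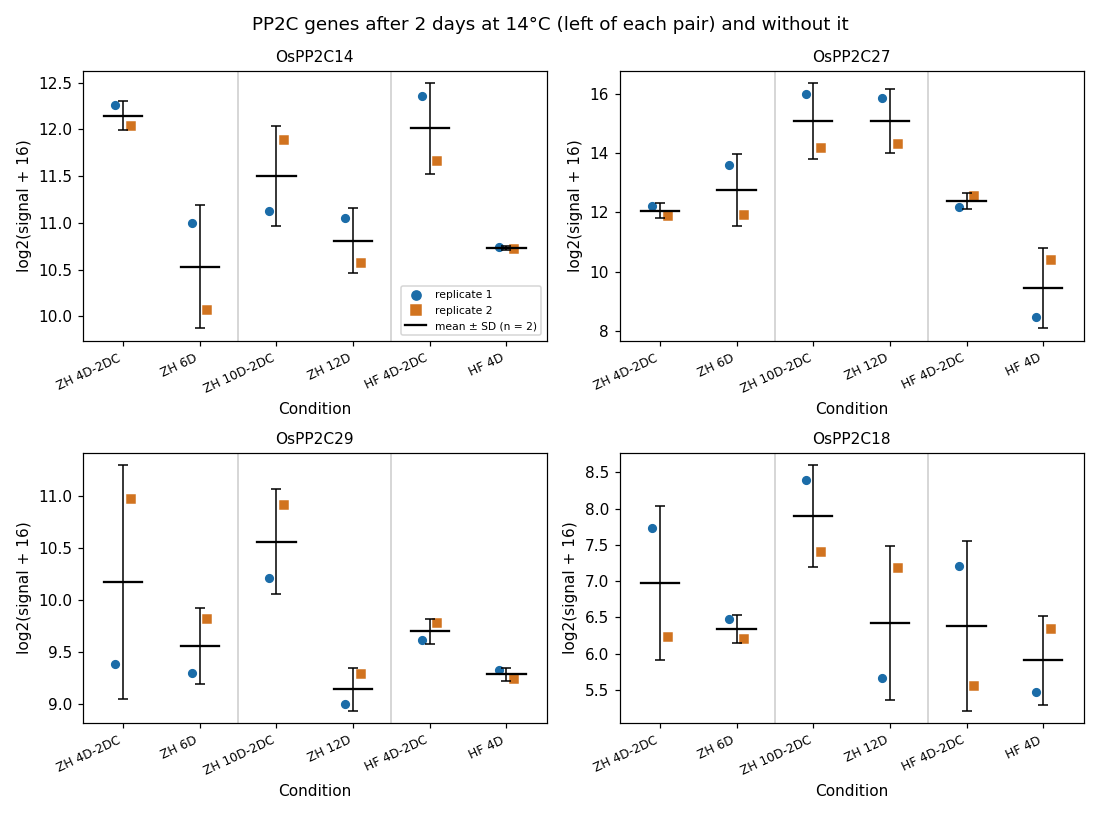
OsPP2C14, OsPP2C27, OsPP2C29 and OsPP2C18 in cold seeds (left of each pair) and seeds without cold, as log2(signal + 16) of each array by replicate number with the mean and SD over 2 arrays. OsPP2C14 is at 12.26 and 12.03 in ZH 4D-2DC against 11.00 and 10.06 in ZH 6D, and OsPP2C29 at 10.21 and 10.92 in ZH 10D-2DC against 9.0 and 9.29 in ZH 12D.

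Whether the response to cold differed between the stages was tested as the difference of both contrasts, later stage minus earlier stage. No member passed the threshold, beside 1.25% of all probe sets tested, so that neither OsPP2C14 (-0.92, SE 0.82) nor OsPP2C29 (0.81, SE 0.88) was shown to respond at 1 stage alone. The extremes were OsPP2C11 (1.27, SE 1.06) and OsPP2C62 (-1.35, SE 1.41).

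OsPP2C11 was at 8.97 and 9.65 in ZH 10D-2DC, against 7.93 and 9.26 in ZH 12D, and at 9.57 and 9.54 in ZH 4D-2DC, against 10.31 and 9.90 in ZH 6D. OsPP2C62 was at 9.31 and 7.83 in ZH 10D-2DC, against 9.90 and 8.98 in ZH 12D, and at 8.20 and 8.99 in ZH 4D-2DC, against 7.74 and 8.50 in ZH 6D. Both genes thus had opposite signs at the 2 stages with differences inside their errors.

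The 4 ABA core genes give a scale for these values. They share all conditions with the members, and their median difference was 1.07 from 4 DAF and 1.32 from 10 DAF, where all 4 were positive and OsPP2C30 (2.06) and PP2C68 (3.07) passed the threshold (limma adjusted p = 1.0 for both). OsPP2C09, OsPP2C51 and OsPP2C53 gave 0.40, -0.14 and 0.65 from 4 DAF and 1.13, -0.32 and 0.29 from 10 DAF, none past the threshold. Of the SnRK2, MAP kinase and MAP kinase kinase genes none passed in either cold comparison, but with the replicate block 1 SnRK2 gene, OsSAPK1, was higher from 4 DAF (1.74). Among the 30 calcium-regulated genes, the sensor gene CBL4 was higher from 4 DAF (1.91) and the sensor gene CBL2 of LOC4325962 lower from 10 DAF (-1.91, limma adjusted p = 1.0 for both). With the block CIPK21 was also lower from 10 DAF (-1.74, limma adjusted p = 0.813). Of all 34316 probe sets, the block put 599 higher and 527 lower past the threshold from 4 DAF, and 955 and 1121 from 10 DAF.

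Cultivars were compared before and after cold, HF minus ZH. No member passed the threshold in HF 4D-2DC minus ZH 4D-2DC, beside 1.3% of all probe sets tested, and none in HF 4D minus ZH 4D, beside 1.88%. No member had an unadjusted limma p under 0.05 in either. The median difference was -0.06 after cold and 0.05 before it, and the members spanned -1.06 to 1.43 and -1.08 to 1.31. Of the kinase and other phosphatase genes, 1 passed in HF 4D minus ZH 4D, MPK16, lower (-1.81, limma adjusted p = 1.0), and none in HF 4D-2DC minus ZH 4D-2DC.

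OsPP2C05 had the highest difference in both. It was at 9.44 and 10.14 in HF 4D-2DC, against 7.27 and 9.45 in ZH 4D-2DC, by 1.43 (SE 1.04, limma adjusted p = 1.0). Before cold it was at 8.67 and 9.73 in HF 4D, against 6.89 and 8.90 in ZH 4D, by 1.31 (SE 1.04, limma adjusted p = 1.0). HF was higher on both replicate numbers at both temperatures, while the replicate 1 arrays were lower than those of replicate 2 in all 8 conditions.

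With the replicate block OsPP2C05 passed the threshold after cold and before it (limma adjusted p = 1.0 in both), as the 1 member to do so, beside 3.04% and 4.67% of all probe sets tested. In late ZH seeds the gene overlapped the HF arrays, at 8.32 and 10.29 in ZH 10D and 8.74 and 10.39 in ZH 12D.

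The lowest differences were those of OsPP2C32 after cold and OsPP2C69 before it. OsPP2C32 was at 8.51 and 9.99 in HF 4D-2DC, against 9.34 and 11.29 in ZH 4D-2DC, by -1.06 (SE 1.04). OsPP2C69 was at 6.89 and 6.99 in HF 4D, against 7.83 and 8.21 in ZH 4D, by -1.08 (SE 0.87). Neither passed.

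For the cultivars too, single arrays decided what passed. The share of all probe sets that passed without an array is not given, here, for cold or for the difference of the cultivar contrast. Such calls thus describe single members only. In HF 4D minus ZH 4D, OsPP2C09, OsPP2C44 and OsPP2C78 passed as higher without replicate 2 of ZH 4D, and OsPP2C32 as lower without replicate 1 of ZH 4D, whose arrays had an SD of 2.56 for OsPP2C32. In HF 4D-2DC minus ZH 4D-2DC, OsPP2C59 passed as lower without replicate 2 of HF 4D-2DC and OsPP2C48 as higher without replicate 2 of ZH 4D-2DC.

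The difference of the cultivar contrast between temperatures had no member past the threshold, beside 0.714% of all probe sets tested. Without replicate 2 of HF 4D-2DC it had OsPP2C59, without replicate 2 of ZH 4D-2DC OsPP2C69, and without replicate 2 of ZH 4D OsPP2C35 and OsPP2C44. Its extremes were OsPP2C69 (1.59, SE 1.23) and OsPP2C78 (-1.72, SE 1.87). OsPP2C69 was at 7.87 and 6.54 in HF 4D-2DC, against 5.38 and 8.02 in ZH 4D-2DC, where the arrays of ZH were the farther apart. OsPP2C78 was at 6.05 and 8.37 in HF 4D-2DC, against 6.91 and 8.38 in ZH 4D-2DC, and at 7.56 and 8.53 in HF 4D, against 4.92 and 8.60 in ZH 4D.

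**Figure D5:**
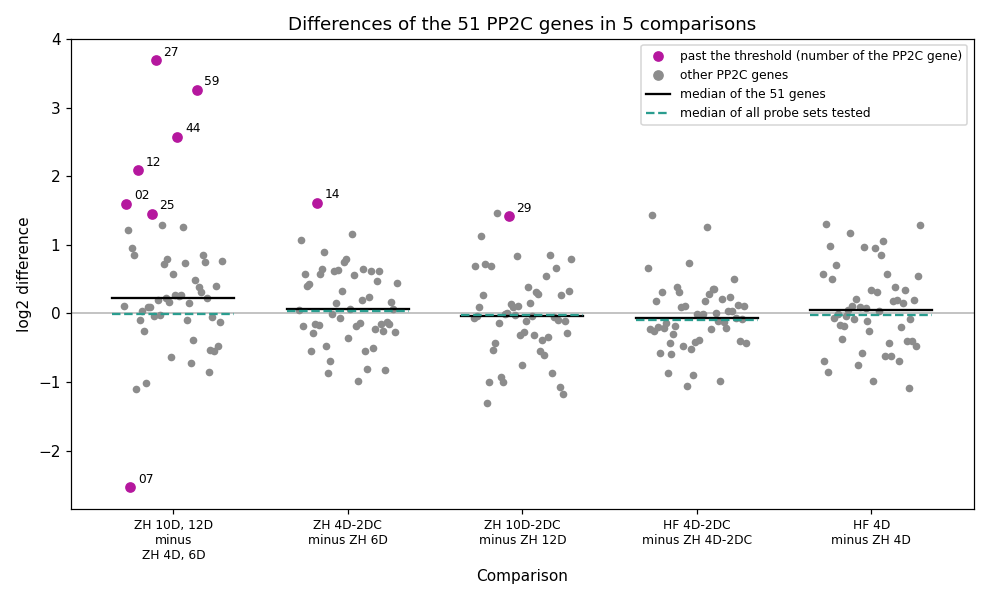
Log2 differences of the 51 PP2C genes in the comparisons of seed age, cold and cultivar, one point per gene, with genes past the threshold marked. Seed age spans -2.54 to 3.69, while both cold and both cultivar comparisons stay within -1.30 to 1.62.

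The members with known roles outside ABA signaling did not pass the threshold between cold seeds and seeds of the same age. OsPP2C35, also named XB15, dephosphorylates the immune receptor XA21 in rice. Its condition means spanned 0.90, while its 2 arrays of ZH 4D lay farther apart, at 7.90 and 10.37. OsPP2C13, also named DCW11, is a mitochondrial phosphatase linked to male sterility in rice. It was at 9.07 and 8.74 in ZH 10D-2DC, against 10.03 and 9.78 in ZH 12D, a difference of -1.0 (SE 0.73) without overlap of the arrays. OsPP2C34, also named BIPP2C2, was at 11.57 and 11.78 in ZH 10D-2DC, against 11.08 and 10.58 in ZH 12D, a difference of 0.84 (SE 0.59), again without overlap. In this comparison 16.1% of all probe sets tested lay lower without overlap and 12.8% higher.

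The 3 members tied to ABA by their names or known roles did not pass the threshold in any comparison above when all 16 arrays were used. OsPP2C09 was at 10.77 and 11.49 in ZH 10D-2DC, against 9.74 and 10.27 in ZH 12D, by 1.13 (SE 0.75). OsPP2C51, known for promoting rice seed germination, was at 5.71 and 6.61 in ZH 10D-2DC, against 4.95 and 8.0 in ZH 12D, by -0.32. OsPP2C53 was at 7.56 and 9.87 in ZH 10D-2DC, against 7.75 and 9.11 in ZH 12D, by 0.29.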

How the data were processed

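RNA of whole rice seeds was hybridized to Affymetrix rice genome arrays, 1 per sample. The deposited values are linear intensities (signals) that the authors made with MAS5, per the labels, with a 2% trimmed mean of 500 on each array. The methods of the study name GC-RMA, so probes were summarized differently there. Signals were used as log2(signal + 16). Of 57381 probe sets, 187 controls were removed, and 34316 with a mean above the 40th percentile were tested. The annotation paired 22436 probe sets with 1 gene, 95 with several and 34850 with none, and all 22436 were found in the RefSeq table (ASM3414082v1). limma 3.58.1 in R 4.3.3 fitted 1 coefficient per condition over all 16 arrays, two-sided, with Benjamini-Hochberg adjustment over all probe sets tested. An exact permutation test of 2 arrays against 2 cannot go below p = 0.33. Deviations from the condition means correlated over 0.1 between same-numbered arrays in 28 of 28 pairs of conditions (r = 0.22 to 0.64), so the replicate number was used as a block in an alternative fit. Other alternatives were a pseudocount of 64, no filter, quantile normalization, median centring, the probe set of the lowest mean, leaving out each array, and, chosen after seeing the data, any tested probe set of a gene. Genes were described where past the threshold in 1 of 7 contrasts, at either extreme of a contrast, at the 3 highest or the lowest mean, or known in chilling signaling, and OsPP2C66, the second probe sets and the members with other names were added. The members, lists and markers were chosen with earlier results of these data known. Array number limits the precision. The fit was tested on simulated data.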

Additional observations from a re-analysis of the deposited data

How the results depend on the processing

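With the replicate number as a block, 11 members passed the age threshold in place of 7, and 1 passed in place of 0 in each cultivar comparison. Both cold counts stayed at 1 and both differences of contrasts at 0, while the block raised the calls over all probe sets. They rose from 221 higher and 193 lower to 599 and 527 for cold from 4 DAF, and from 363 and 498 to 955 and 1121 from 10 DAF. For the stages they rose from 215 and 213 to 596 and 532, and for the difference of cultivar contrasts from 51 and 194 to 176 and 512. Counting any tested probe set of a gene gave 11 for age and 1 for the cultivars after cold, with OsPP2C75, and has no matching share of all genes beside it. The single call from 4 DAF became 0 under median centring and with the probe set of the lowest mean, and that from 10 DAF became 0 under median centring and without the filter. Median centring also left 5 members past the age threshold in place of 7, without OsPP2C02 and OsPP2C12. Over all probe sets it left 1468 higher and 1346 lower for age (2085 and 1745 before centring). Median centring moved the median difference of all probe sets to -0.22 at 10 DAF, from -0.02, to -0.15 for the cultivars before cold, from -0.02, to 0.16 after cold, from -0.10, to -0.30 for the stages, from -0.08, to 0.30 for the difference of cultivar contrasts, from -0.09, and to 0.30 for HF 4D-2DC minus HF 4D, from -0.14. Calls over all probe sets became 173 higher and 506 lower at 10 DAF (363 and 498 before centring), 197 and 317 for the cultivars before cold (310 and 334), 131 and 154 after it (106 and 340), 131 and 195 for the stages (215 and 213), 114 and 87 for the difference of cultivar contrasts (51 and 194), and 392 and 131 for HF 4D-2DC minus HF 4D (222 and 563), and the cause of the lost calls was not tested. Leaving out 1 array gave 5 to 13 members for age, 0 to 3 for cold from 4 DAF, 0 to 2 for cold from 10 DAF, 0 to 3 for the cultivars before cold, 0 to 1 after it, 0 to 0 for the stages and 0 to 2 for the difference between cultivar contrasts. No share of all probe sets is given for these fits. Among single genes, OsPP2C48 in cold from 4 DAF was 0.81 without replicate 1 of ZH 4D-2DC (range -2.77 to 0.81), and OsPP2C78 in the difference of cultivar contrasts was 0.12 without replicate 1 of ZH 4D (range -3.56 to 0.12). With a pseudocount of 64 and with quantile normalization, all 20 named differences in the comparisons of seed age, cold at matched age and cultivar kept their direction and their side of the threshold.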
